A study of Drosophila melanogaster with 2 samples.

Results

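The Dpp and BMP pathway genes described here are the ligand genes dpp, gbb and scw, the antagonist gene sog, the receptor genes tkv, sax and put, the effector gene Mad and the repressor gene brk. They were taken as a list of 9 genes out of 18277 annotated genes, and a peak was counted for a gene when its summit, the base of highest signal, lay in the gene or within 1 kb of it. All 9 names matched the annotation, and all 9 spans were the same in RefSeq. Chromatin of whole Drosophila melanogaster embryos of both sexes, 0 to 16 h old, was sonicated to 200 to 800 bp, immunoprecipitated and sequenced (ChIP-seq). The embryos came from 1 transgenic line in which Jing, a zinc finger protein, carries green fluorescent protein (GFP) at its C terminus, and an antibody against GFP was used. The samples form a single group of 2 biological replicates from separate biosamples, which the labels number 2 and 3, so no condition was compared with another and no test between samples was possible. Embryos of these ages mix many stages and all tissues, so the lists do not show in which cells a site was bound.

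Dpp, Gbb and Scw are secreted ligands of the bone morphogenetic protein family. They are bound by a complex of the type I receptor kinases Tkv and Sax with the type II receptor kinase Put, which phosphorylates Mad, and Mad then enters the nucleus with its partner Med. Sog, the fly counterpart of Chordin, binds the ligands outside the cell and shapes the dorsal gradient of the early embryo, while Brk represses target genes where signalling is low. In the embryo the pathway patterns the dorsal ectoderm and amnioserosa and later guides the migration of tracheal branches, a tissue in which Jing is also known to act.

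Each replicate has a list of its 30000 strongest peaks and background regions, and so do the pooled reads of both. A thresholded list, selected for reproducibility between replicates, holds the 2593 strongest pooled peaks. Each peak has a signal, the authors' own value on a scale that is not given, and its rank is its place by signal within its own list, so that ranks and not signals are set side by side between lists. The thresholded list had 8 summits in these genes, in 4 of the 9. There were 3 in sog, 2 in dpp, 2 upstream of brk and 1 in Mad, and none in gbb, scw, tkv, sax or put. Among all genes 13.2% had such a summit, and among the protein-coding genes 15.0% did. Long genes had one more often, and the members differ in length, so the share is given by span. Of the members under 5 kb, 1 of 4 (brk) had a thresholded summit, beside 9.14% of protein-coding genes of that span. Of those of 5 to 20 kb it was 1 of 2 (Mad), beside 25.6%, and of those of 20 to 50 kb it was 2 of 2 (sog and dpp), beside 47.0%. The 1 member over 50 kb, tkv, had none, beside 53.4% of such genes. With so few members in each span, these shares are counts only and show no difference from other genes.

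Windows of 200 bp around the strongest pooled summit are shown for 6 members, those with a thresholded summit and then tkv and put, which had the next strongest. The other thresholded summits of dpp, sog and brk are not shown. The windows were read from the plus strand of the Release 6 assembly (dm6). Capitals mark matches to the consensus sequences of Brk, Mad, DRE, GAGA, homeodomain, GATA and CACCC-box factors that were searched on both strands. Windows without capitals held none of these. The Mad window is chr2L:3153342-3153541, that of dpp chr2L:2433544-2433743, that of brk chrX:7307027-7307226, that of sog chrX:15619382-15619581, that of tkv chr2L:5245737-5245936 and that of put chr3R:14624104-14624303. All 6 lie in introns as annotated, that of brk in an intron of the overlapping gene CG1677. The windows of Mad, dpp, brk and sog hold thresholded summits, and those of tkv and put hold pooled summits below the threshold.
Mad: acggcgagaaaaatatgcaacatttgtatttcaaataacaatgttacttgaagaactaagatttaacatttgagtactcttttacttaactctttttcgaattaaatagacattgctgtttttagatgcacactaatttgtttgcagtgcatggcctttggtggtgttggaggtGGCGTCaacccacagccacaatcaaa
dpp: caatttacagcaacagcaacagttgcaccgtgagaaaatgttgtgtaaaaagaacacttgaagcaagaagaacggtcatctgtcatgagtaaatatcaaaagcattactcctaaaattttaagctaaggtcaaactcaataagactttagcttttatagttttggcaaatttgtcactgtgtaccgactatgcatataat
brk: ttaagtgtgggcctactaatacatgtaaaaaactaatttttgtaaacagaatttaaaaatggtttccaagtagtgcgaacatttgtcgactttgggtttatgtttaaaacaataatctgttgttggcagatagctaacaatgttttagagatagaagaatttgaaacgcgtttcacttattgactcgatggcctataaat
sog: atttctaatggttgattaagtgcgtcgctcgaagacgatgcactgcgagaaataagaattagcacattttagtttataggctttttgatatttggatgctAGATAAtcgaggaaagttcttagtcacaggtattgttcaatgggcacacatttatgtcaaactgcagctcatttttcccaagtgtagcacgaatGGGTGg
tkv: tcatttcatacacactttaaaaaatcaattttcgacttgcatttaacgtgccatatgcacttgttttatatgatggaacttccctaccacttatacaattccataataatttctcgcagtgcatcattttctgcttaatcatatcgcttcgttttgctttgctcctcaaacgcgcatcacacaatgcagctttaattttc
put: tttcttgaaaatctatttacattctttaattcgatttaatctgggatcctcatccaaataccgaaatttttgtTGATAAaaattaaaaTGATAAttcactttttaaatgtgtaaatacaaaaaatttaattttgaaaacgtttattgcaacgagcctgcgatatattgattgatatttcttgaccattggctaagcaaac

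The ligand genes differed among themselves. The dpp gene (FBgn0000490, chr2L:2428372-2459823, plus strand) spans 31.5 kb and has 4 start sites, the later 3 of them 21.8, 22.9 and 26.4 kb from the first. Its strongest summit, at 2L 2433644, had a pooled signal of 338 and rank 412, with rank 449 in replicate 2 and rank 423 in replicate 3. It lay 5272 bp downstream of the first start site, in a first intron of 26006 bp that only 1 of the 4 annotated transcripts has at this point. The second thresholded summit, at 2L 2451333, was 104 bp downstream of the third start site, with a pooled signal of 152 and rank 1558. This promoter summit was less even between replicates, at rank 1144 in replicate 2 (34 bp away) and rank 2559 in replicate 3 (69 bp away). It was the 1 thresholded summit of the 8 within 500 bp of an annotated start site.

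Below the threshold dpp held many weaker summits. The pooled list had 28 summits in dpp, with signals from 30.2 to 338 and a median of 45.4. Replicate 2 had 31 and replicate 3 had 23. This is 0.837 pooled summits per kb, beside 0.250 for the median protein-coding gene of 20 to 50 kb and 0.224 over all arms without Y. Of protein-coding genes of any span, 98.4% had a lower density. Introns took 21 of the 28. The 4 start sites were not alike: the first had a pooled summit 94 bp upstream at rank 20184 only, while summits at ranks 4015, 1558 and 4764 lay within 500 bp of the second, the third and the last. Replicate 2 placed 4 of its 2593 strongest peaks in dpp, the additional ones being at 2L 2454823, 86 bp downstream of the last start site (rank 2294), and at 2L 2449817, 376 bp upstream of the second (rank 2421). In replicate 3 the summits nearest to these were 257 bp away at rank 3969 and 821 bp away at rank 11161, so replicate 3 had only the first 2 positions among its strongest peaks.

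The other ligand genes are short and carried little. In scw (FBgn0005590, chr2L:19699379-19700968, minus strand, 1.59 kb), which encodes an early embryonic ligand, there was 1 pooled summit, at 2L 19698904 with a signal of 63.0 and rank 5629. It lay 475 bp beyond the 3′ end of scw, and scw lies wholly within the span of Lar, a receptor tyrosine phosphatase gene, on the other strand, so the summit is also in an intron of Lar. It stood at rank 9119 in replicate 2 and rank 6882 in replicate 3. In gbb (FBgn0024234, chr2R:23851562-23853247, plus strand, 1.69 kb), no summit of any of the 4 lists was in the gene or within 1 kb. The nearest pooled summit was 20.4 kb away, nearest to the start site of ken, with a signal of 488 and rank 188.

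A strong peak of replicate 3 alone lay just outside the limit at gbb. Its summit at 2R 23850401 was 1161 bp upstream of gbb, 161 bp beyond the limit, and 71 bp downstream of the start site of asRNA:CR45928. In replicate 3 it had a signal of 269 and rank 211. The summit of replicate 2 nearest to gbb was 18357 bp from the gene, and the nearest pooled summit to this position was 22282 bp away, although the pooled reads include those of replicate 3. Of the 2593 strongest peaks of replicate 3, 62 (2.39%) had no pooled summit within 250 bp, and of those of replicate 2, 113 (4.36%) had none. The cause was not tested.

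The antagonist gene sog had the most thresholded summits of the 9 genes, and all 3 lay in 1 intron. The gene (FBgn0003463, chrX:15603283-15633434, minus strand) spans 30.2 kb with start sites 6.89 kb apart, and the intron of 10523 bp downstream of the second start site is present in all 3 transcripts. The first intron of sog is known from other work to hold an enhancer that is active in the early neurogenic ectoderm, whose position was not looked up here. From the second start site, the summits stood 3472, 7058 and 10893 bp downstream. The middle one, at X 15619482, was the strongest, with a signal of 286 and rank 553, at rank 490 in replicate 2 (3 bp away) and rank 577 in replicate 3 (60 bp away). The first, at X 15623068, had a signal of 215 and rank 891, and was stronger in replicate 3 (rank 649) than in replicate 2 (rank 1765). The third, at X 15615647, had a signal of 124 and rank 2086, with ranks of 1640 in replicate 2 and 2405 in replicate 3.

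Of the 15 pooled summits in sog, 8 were in that intron. The strongest below the threshold was at X 15632837, 597 bp downstream of the first start site in the 5′ UTR, at rank 2787. It was among the strongest peaks in replicate 3 (rank 2016) and not in replicate 2 (rank 6958). The next, at X 15626393, lay 147 bp downstream of the second start site with a signal of 95.8 and rank 2955, and here replicate 2 ranked it higher (2445) than replicate 3 (3946). Each start site of sog thus had a summit that was among the 2593 strongest peaks of 1 replicate and not of the other.

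The receptor genes held no thresholded summit, and tkv came closest. The gene (FBgn0003716, chr2L:5219000-5271384, minus strand) spans 52.4 kb with 4 start sites, and it also overlaps smaller genes, among them Cyp4ac1, Cyp4ac2, Cyp4ac3 and lncRNA:CR44744. Its strongest pooled summit, at 2L 5245837, had a signal of 105 and rank 2640, and the next stood at ranks 2734 and 2864. The weakest thresholded peak had a signal of 106.2 and rank 2593, and the strongest one left out had rank 2594, so these 3 tkv summits lay just below the threshold. In all, tkv had 25 pooled summits, 0.460 per kb, beside 0.222 for the median protein-coding gene over 50 kb, and 18 of them were intronic. For only 10 of the 25 was the nearest start site that of tkv, beside 24 of 28 in dpp, so the count includes summits at the overlapping genes.

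Each replicate by itself did place 1 of its 2593 strongest peaks in tkv, but not at the same site. In replicate 2 it was at 2L 5256133 (signal 56.5, rank 2178), and the corresponding summit of replicate 3 stood at rank 3661. In replicate 3 it was at 2L 5254300 (signal 69.7, rank 2069), where replicate 2 had rank 11533. The positions are 1833 bp apart, in the first intron of 1 of the 4 transcripts, and the closest start site to both is that of lncRNA:CR44744 and not of tkv.

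The type II receptor gene put (FBgn0003169, chr3R:14619030-14625703, minus strand, 6.67 kb) had 3 pooled summits. The strongest, at 3R 14624204 in the first intron, 1499 bp downstream of the start site, had a signal of 88.6 and rank 3293, with rank 4714 in replicate 2 and 6177 in replicate 3. The other 2 were in the 3′ UTR, with signals of 39.0 and 31.4. Near the start site replicate 2 had a summit, 8 bp downstream at rank 4933, and replicate 3 had none there among its 5. The type I receptor gene sax (FBgn0003317, chr2R:7806484-7810067, plus strand, 3.58 kb) had no summit in any list. The nearest pooled summit was 12.3 kb away with a signal of 41.9. Replicate 2 alone had a closer one, 2296 bp from sax and 141 bp upstream of the start site of puml, at rank 1972, and the nearest summit of replicate 3 to it was 9999 bp away.

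Mad, the effector gene, carried the strongest peak of the 9 genes. Mad (FBgn0011648, chr2L:3146056-3159643, minus strand) spans 13.6 kb with 2 annotated start sites. Its thresholded summit at 2L 3153442 had a signal of 559 and stood at rank 135 of 30000 pooled peaks. In replicate 2 the nearest summit lay 20 bp away with a signal of 236 and rank 138, and in replicate 3 it was at the same base with a signal of 323 and rank 140. The ranks thus lay within a few places of each other in the 3 lists. The position was 689 bp upstream of the second start site, inside the first intron of the longer transcript and 6.20 kb from the 5′ end of the gene. The other 4 pooled summits in Mad were far weaker, with signals from 30.7 to 54.8.

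The repressor gene brk had a pair of thresholded summits upstream of its start site. The gene (FBgn0024250, chrX:7307939-7311132, plus strand, 3.19 kb) has 1 start site, and the summits were 812 bp upstream, at X 7307127 with a signal of 301 and rank 498, and 608 bp upstream, at X 7307331 with a signal of 118 and rank 2261. They are 204 bp apart. Replicate 3 had both, at ranks 373 and 2875, within 1 bp of the pooled positions. Replicate 2 had a single summit between them, at X 7307256 with a signal of 108 and rank 749, 129 bp from the first and 75 bp from the second, so its list does not separate them. It also had a summit 69 bp downstream of the start site at rank 4756, which the other lists did not have. The other pooled summit, in the 3′ UTR, had a signal of 38.2 and rank 17522. The brk gene lies wholly inside CG1677 and lncRNA:CR44357, which run on the other strand, and both thresholded summits are also in introns of CG1677. The span of CG1677 held 14 thresholded summits, those 2 included, with signals from 116 to 725, and the strongest of them was 29.1 kb downstream of the brk start site.

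**Figure D1:**
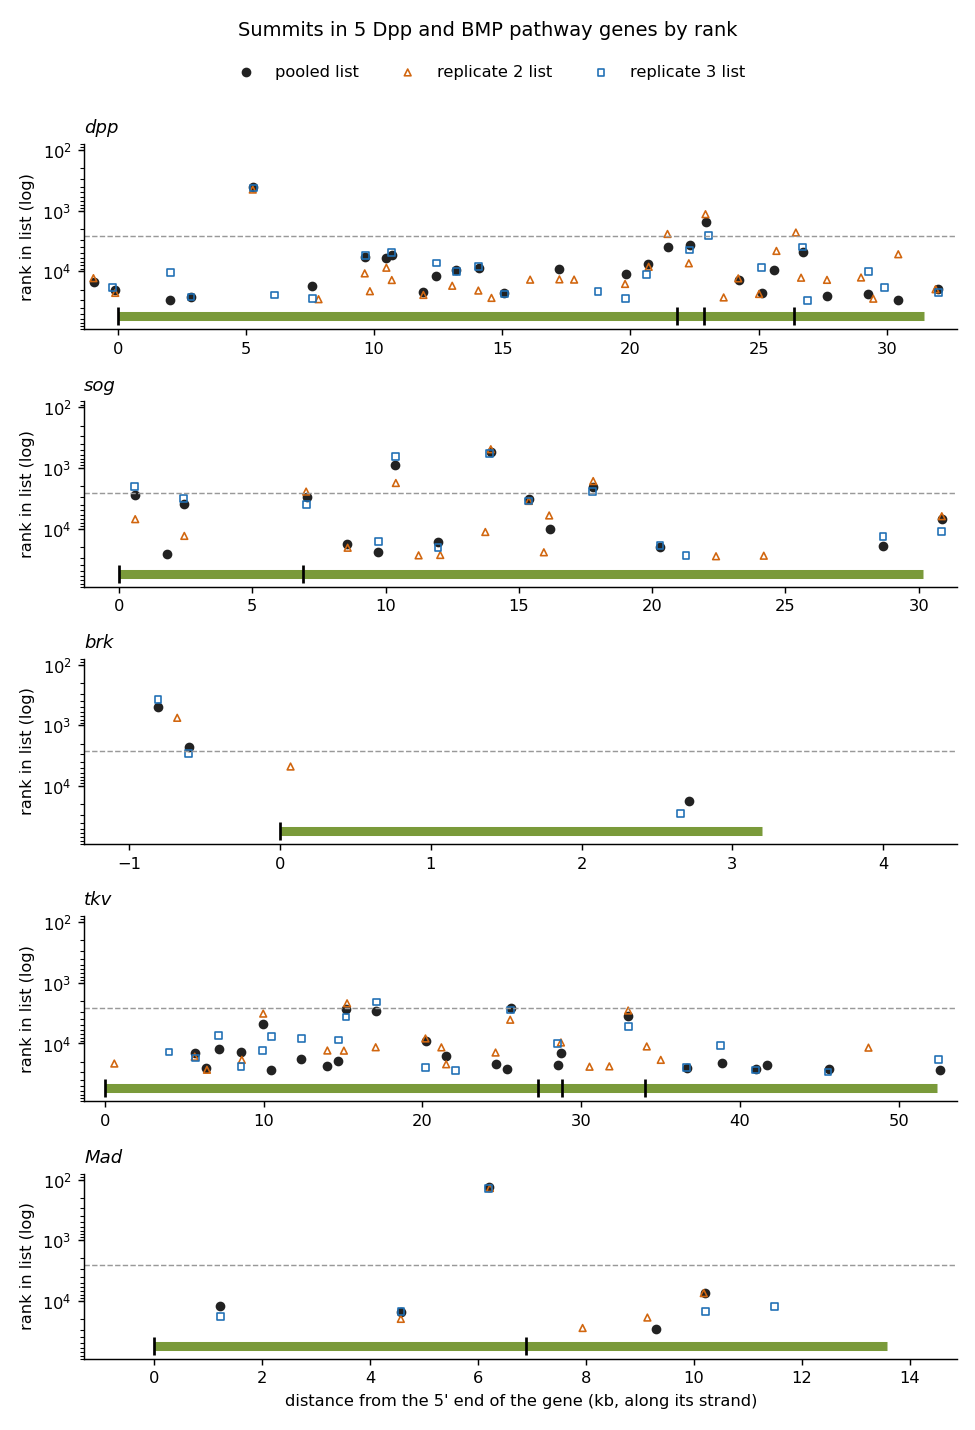
Summits in dpp, sog, brk, tkv and Mad, placed by distance from the 5′ end of each gene in kb along its strand (x axis) and by rank in their own list on an inverted log axis (y axis). Filled circles are the pooled list, triangles replicate 2 and squares replicate 3, the green bar is the gene, black ticks are annotated start sites and the dashed line is rank 2593. In Mad and in the first part of dpp the 3 lists have 1 summit together far above the others, at ranks 135 to 140 and 412 to 449. In tkv the strongest pooled summits, at ranks 2640, 2734 and 2864, lie just under the line, replicate 2 and replicate 3 have 1 summit each above it, at ranks 2178 and 2069, and most of the others lie far below.

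Across the 9 genes the pooled list had 80 summits, replicate 2 had 80 and replicate 3 had 70. In each of these lists 7 of 9 members had a summit, beside 50.7% of protein-coding genes in the pooled list, 54.8% in replicate 2 and 54.0% in replicate 3. These shares are not matched for span. The median protein-coding gene had 0 pooled summits under 5 kb, 2 at 5 to 20 kb, 8 at 20 to 50 kb and 18 over 50 kb. Most genes over 5 kb thus had one, and of the members under 5 kb it was 2 of 4. The density over the extended spans of the 9 genes together was 0.493 pooled summits per kb, beside 0.224 over all arms without Y. In 6 members it was above the upper quartile over protein-coding genes (0.310 per kb), with 0.321 in Mad, 0.346 in put, 0.460 in tkv, 0.467 in sog, 0.578 in brk and 0.837 in dpp. In scw it was 0.279, from a single summit. This quartile is set mostly by short genes and is not matched for span. The median density of protein-coding genes was 0 under 5 kb, 0.153 at 5 to 20 kb, 0.250 at 20 to 50 kb and 0.222 over 50 kb.

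**Figure D2:**
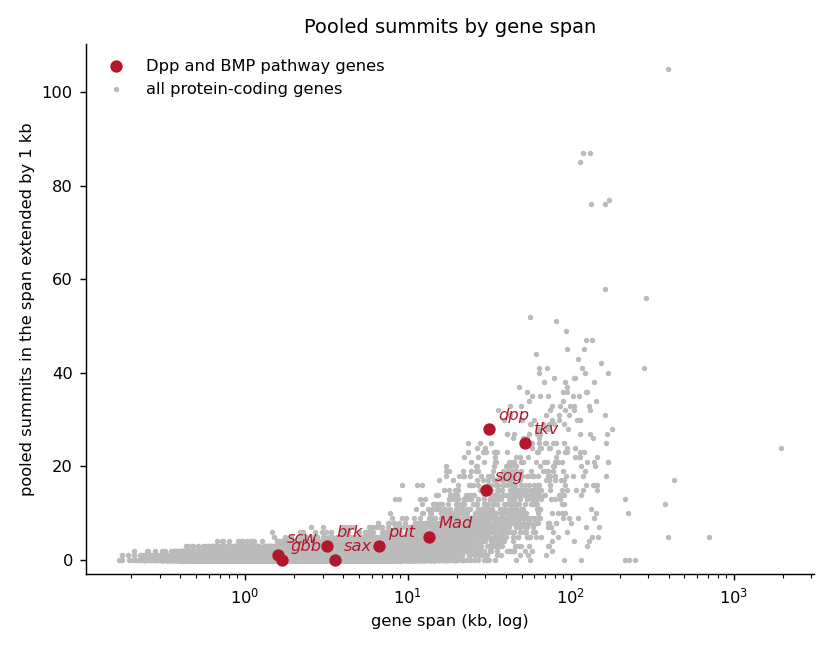
Number of pooled summits in the span extended by 1 kb (y axis) against gene span in kb on a log axis (x axis), with members in red and all 13968 protein-coding genes in grey. The dpp gene, with 28 summits, lies near the upper edge of genes of its span, tkv with 25 and sog with 15 lie inside the cloud, and gbb and sax are at 0.

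The thresholded summits in these genes were mostly found by both replicates. That list was selected for reproducibility between them and holds the strongest pooled peaks, so this sharing is no separate result. Of the 8, 7 had a summit of each replicate within 100 bp, beside 94.1% of all 2593 thresholded peaks, and the exception was the first brk summit, 129 bp from that of replicate 2. Of these 7, 5 ranked higher in replicate 2 and 2 in replicate 3, beside 1026 and 1405 of all 2440 such peaks. In rank, 3 of the 7 differed by more than 2-fold, beside 627 of the 2440. The second brk summit is among both the 5 and the 3. Its replicate 2 rank is that of the single summit lying between the 2 brk summits, so this gap may reflect the pairing. Of all pooled summits fewer were shared: 32 of the 80 in the members had both replicates within 100 bp, beside 33.2% of all pooled peaks. Of the replicate 2 summits in members 40.0% had one of replicate 3 within 100 bp, beside 33.2% over all peaks, and of the replicate 3 summits 45.7% had one of replicate 2, beside 33.2%. In dpp it was 9 of 31 (29.0%) for replicate 2 and 9 of 23 (39.1%) for replicate 3, on either side of the share over all peaks.

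**Figure D3:**
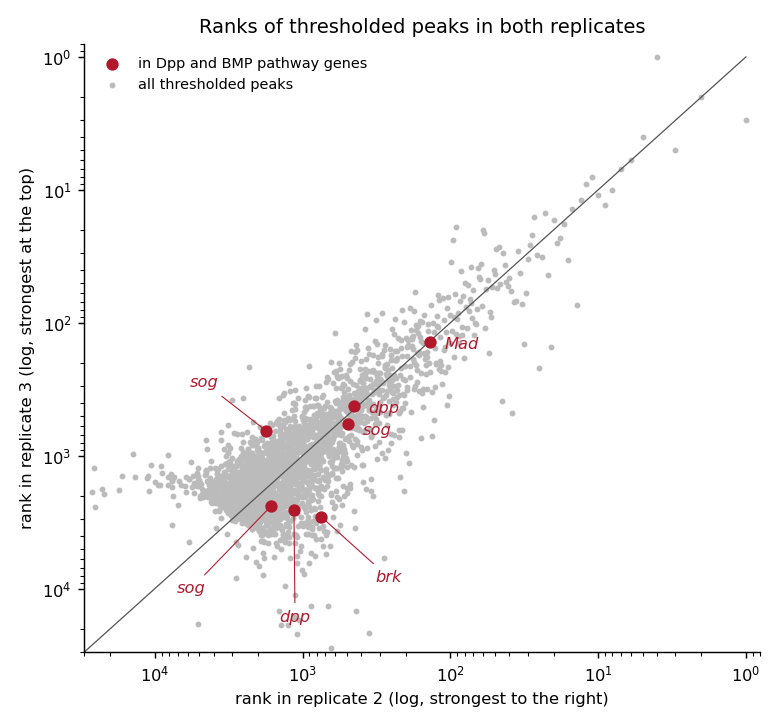
Rank in replicate 2 (x axis) against rank in replicate 3 (y axis), both log and with the strongest at the right and top, for the 7 summits in member genes (red) and all 2440 thresholded peaks (grey) with a summit of both replicates within 100 bp. The line marks equal rank. Mad and the strongest summits of dpp and sog lie close to it. The second dpp, the weakest sog and the second brk summits rank higher in replicate 2, and 1 sog summit ranks higher in replicate 3. The replicate 2 rank of the brk summit is that of the single summit lying between the 2 of brk.

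Of the 8 thresholded summits 7 were intronic, beside 39.3% of all thresholded peaks. Both brk summits are among the 7 through introns of CG1677 and not of brk. Summits were counted only in a gene or within 1 kb, so intergenic ones, 17.5% of all thresholded peaks, were mostly left out beforehand. The remaining 1 was at a promoter, within 500 bp of a start site, beside 40.8%. The promoter count rests on that distance and on the list. It was 4 of 8 with a distance of 1 kb, and 4 of 11 among the 2593 strongest peaks of replicate 2 alone. No share over all those replicate 2 peaks was computed. Most of all thresholded peaks also lay within 1 kb, since their median distance to a start site was 881 bp. Over 2 kb from any start site and in an intron were 4 of the 8, namely all 3 of sog and the strongest of dpp, beside 23.3% of all. The nearest annotated start site was that of the member itself for all 8. The median distance to it was 2142 bp, beside 881 bp over all thresholded peaks. The median signal was 250 in the members and 170 in all thresholded peaks. With 8 summits, several of them in 1 intron, these values are descriptions and no difference was tested.

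The sequences around the summits were rich in A and T, as at the other peaks. The median GC content of the 200 bp around the 8 summits was 34.8%, with a range from 29.5% at the second brk summit to 47.0% at the promoter summit of dpp, beside a median of 34.5% over all thresholded peaks. The Brk sequence, searched as GGCGCC, as GGCGCT, as well as in the forms GGCGTC and also GGCGTT, matched at 2 of the 8, the Mad summit and the promoter summit of dpp, beside 13.1% of all thresholded windows and 20.9% of windows of the same length at all annotated start sites. In the Mad window shown above, the match GGCGTC begins 74 bp from the summit. The Mad sequence GCCGNCGC, which can overlap the Brk sequence, matched at none of the 8, beside 1.31% of thresholded windows and 3.25% of start sites. The short SMAD box GTCT, left in lower case above, matched at 5 of 8, beside 52.4% and 58.6%.

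The other sequences searched matched at no more than 3 of the 8 summits. The GATA sequence (AGATAA or TGATAA) matched at 3 of 8 summits, 2 in sog and 1 upstream of brk, beside 28.3% of thresholded windows and 22.2% of start sites, and in the sog window shown it begins at the summit base. The homeodomain sequence TAATTA matched at 2 of 8 (16.7% and 9.56%), and the CACCC box, CACCC, at 2 of 8 (13.8% and 17.0%). The GAGA sequence GAGAG matched at 1, the weakest sog summit, with 5 overlapping matches (24.4% and 24.3%). The DRE sequence TATCGATA matched at none (1.08% and 5.42%). A match is a string of letters and shows no binding, and a window without one says nothing on the factor.

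Other genes of the pathway were looked at from 6 lists of 44 genes, and 21 of them had a thresholded summit, beside 15.0% of protein-coding genes. Their median span was 8.91 kb, beside 6.67 kb for the members and 2.16 kb for all protein-coding genes, and of protein-coding genes of 5 to 20 kb 25.6% had one. By list the median span was 3.62 kb for the dorsal ectoderm, amnioserosa and mesoderm targets, a span class with a share of 9.14%. In every other list it lay between 6.24 kb and 15.0 kb, a span class with a share of 25.6%. These shares do not match the longer genes of the lists. Over 50 kb were dally, kek5, shn, nmo, ush and bi, all with a thresholded summit, beside 53.4% of such genes. Of 20 to 50 kb were cv-2, dlp, nej and tup, which had one, and tok, which had none, beside 47.0%. The counts by list rest on 4 to 12 genes each, and no difference from other genes was tested. In all they held 52 thresholded summits, 12 of them in ush.

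Of the other receptors and SMAD genes, 4 of 5 had a thresholded summit, beside 15.0% of protein-coding genes. The 4 include babo, counted for a summit at 2R 8951356 that lies outside the gene and 239 bp upstream of the start site of Tom7. It had a signal of 134 and rank 1879, and the nearest summit of replicate 2 was 144 bp away at rank 3034. Med, the partner of Mad, was counted for a summit at 3R 31616171 with a signal of 812 and rank 57, which lies beyond its 3′ end and 11 bp upstream of the start site of Mnat9. The inhibitory SMAD gene Dad had an intronic summit with a signal of 414 and rank 265. The start site nearest to it, 7556 bp away, was that of Ns1. The gene wit, another type II receptor gene, had an intronic summit with a signal of 330 and rank 430. Of the other ligands, daw, an Activin-type ligand gene, had 1 summit, 165 bp upstream of a start site with a signal of 182, and Actbeta, mav and myo had none above the threshold.

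Among the extracellular modulators 5 of 12 had a thresholded summit, beside 15.0% of protein-coding genes, a share not matched for span. The gene magu encodes a secreted modulator of the Dpp gradient and is also known as pentagone. Its strongest summit lay 270 bp upstream of a start site, with a signal of 537 and rank 147. The gene cv-2, which encodes a ligand-binding protein, had an intronic summit with 332, and the glypican gene dlp an intronic one with 295. The start sites nearest to these intronic summits were those of CG17974, 13638 bp away, and lncRNA:CR45888, 4207 bp away. Both tsg and tld, which act with sog in the early embryo, had no pooled summit at all. Among the intracellular regulators and cofactors, 4 of 7 had a thresholded summit, beside the same unmatched share. The corepressor gene gro had a summit 128 bp upstream of a start site with a signal of 581 and rank 122. The gene shn, the cofactor through which Mad represses brk, had 7 with a highest signal of 395. The histone acetyltransferase gene nej had 2 with a highest signal of 359, the stronger lying 461 bp upstream of the start site of lncRNA:CR42657.

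Beside 15.0% of protein-coding genes, not matched for span, 4 of 12 targets in dorsal ectoderm, amnioserosa and mesoderm had a thresholded summit. Of the appendage targets, 3 of 4 had one. The GATA cofactor gene ush had 12, the strongest at rank 4 with a signal of 1778. That summit was intronic, and the start site nearest to it was that of cbt, which it lay 1403 bp upstream of. The LIM homeodomain gene tup had 1 with 177. The T-box gene Doc2 had 1 with 177, and its nearest start site was that of CG5194. The dorsal gene zen had no pooled summit, and pnr, a GATA factor gene, had 11 pooled summits with a highest signal of 92.2. Of the appendage genes bi had a highest signal of 198, salm of 176 and salr of 112.

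**Figure D4:**
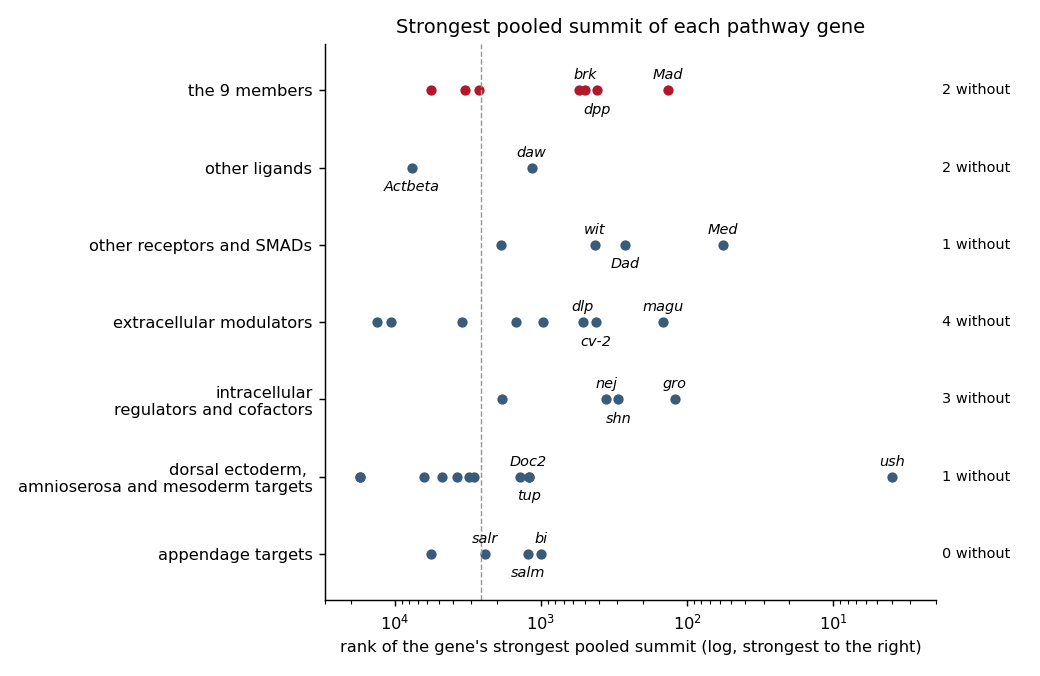
Rank of the strongest pooled summit of each gene on a log axis with the strongest to the right (x axis), by list (rows), with the 9 members in the top row and the other 44 pathway genes below. The dashed line is rank 2593, the 3 genes with the strongest summit of each list are named, and the number of genes without a pooled summit stands at the right. Mad, dpp and brk lead the members at ranks 135, 412 and 498, and ush at rank 4 is the farthest to the right of all. The start site nearest to that ush summit is that of cbt.

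When the strongest 2593 peaks of a single replicate were used in place of the thresholded list, 5 of the 9 members had a summit with either replicate, beside 15.4% of protein-coding genes with replicate 2 and 15.4% with replicate 3. The additional gene was tkv in both cases. These shares are not matched for span. In the thresholded list the share was 53.4% for genes over 50 kb, such as tkv. For those of 20 to 50 kb, such as sog and dpp, it was 47.0%. By gene, replicate 2 gave 4 summits in dpp, 4 in sog and 1 each in tkv, Mad and brk, and replicate 3 gave 2 in dpp, 4 in sog and 1 each in tkv, Mad and brk. The depth of the libraries is unknown, since the lists hold no counts, and a gene without a summit was not detected in these lists, which does not show that it was unbound.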

How the data were processed

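Per the file headers of the text that accompanies each sample, the authors called peaks in each replicate and in the pooled alignments, using a control, on dm6. An irreproducible discovery rate step then gave the thresholded list. Neither the aligner nor the caller is named (not given in the sources used here), and the control was not analysed here. The signal of each peak is the authors' value on a scale that is not given, and was used only for ranks and descriptions. The −log10 of a q-value was deposited for each peak: 6 of the 8 member summits had the highest value in the thresholded list, 3.53, shared by 1709 pooled peaks. Depth is unknown.

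The thresholded list was checked to be the 2593 strongest pooled peaks. Genes and 23694 start sites came from Ensembl release 115, without transposable elements, and sequence from RefSeq's Release 6 assembly. Positions are 1-based. Summits were classed as promoter (within 500 bp of a start site), UTR, exon, intron or intergenic in that order. Counting steps were tested on planted positions. The members, lists and sequences were chosen with earlier results of these data known. Named were all members, the 3 genes with the strongest thresholded summit of each other list, and neighbours with the nearest start site. Genes without such a summit, babo, dally, kek5 and nmo were named after their values were seen, and Myo was matched as myo. Alternatives were other extensions, a stricter threshold, 1 replicate at a time, peak overlap, the nearest start site, merging and other windows. Python 3.11.15, numpy 2.4.6, pandas 2.3.3 and matplotlib 3.10.9 were used.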

Additional observations from a re-analysis of the deposited data

How the results depend on the processing

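No paired analysis was possible because there was 1 group and no test. Of 51 alternatives, 42 gave a count within 1.5 times that reported. Members with a thresholded summit numbered 3 to 5 in every setting run, 3 without the 1 kb extension, where brk was lost, and 5 with replicate 2 or replicate 3 left out, where tkv was added. The 8 thresholded summits became 5 in the 1296 strongest peaks and 9 to 11 with 1 replicate left out. The pooled count of 80 was 70 to 80 with 1 replicate left out. Summits found in both replicates within 50 bp were 4, and within 250 bp they were 8. Summits at promoters were 4 with a distance of 1 kb, which takes in the Mad and both brk summits, and 1 to 4 with 1 replicate left out. In 100 bp windows the matches were 0 for Brk, 3 for the SMAD box, 0 for GAGA, 1 for homeodomain and 0 for CACCC, as a shorter window holds fewer letters. Other pathway genes with a thresholded summit numbered 14 to 25 over all settings, and 21 with either replicate left out. Lists of fixed length and unknown depth limit what absence shows.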

Other observations

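Thresholded summits stood near several members beyond the limit of 1 kb. At dpp, one lay 1.75 kb upstream of the gene, at 2L 2426619 with a signal of 139 and rank 1788, and another 7.70 kb upstream, 160 bp upstream of the start site of CG9886, with a signal of 126 and rank 2049. At brk, a further summit whose nearest start site is that of brk lay 6.43 kb upstream, at X 7301512 with a signal of 157 and rank 1486, in an intron of CG1677. Within 20 kb of brk there were 10 thresholded summits in all, the strongest of them 14.2 kb upstream with a signal of 391, nearest to the start site of unc-119. The nearest thresholded summit to put was 9.64 kb downstream of it, at the promoter of CG14853 with a signal of 182. The nearest to tkv was 21983 bp away, at vri, a bZIP factor gene. The nearest to scw was 21726 bp away, at CG10462, and the nearest to sax was 23682 bp away, at CG46385.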
